A study of Homo sapiens with 4 samples.

Results

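The Sprouty, Spred and dual-specificity phosphatase (DUSP) genes that restrain signalling through the kinase ERK were followed in the established human glioblastoma line U87-MG. The 10 genes were chosen by symbol, out of 23444 entries in the deposited tables, and are SPRY1, SPRY2, SPRY4, SPRED1, SPRED2, DUSP1, DUSP4, DUSP5, DUSP6 and DUSP10. All 10 were found and all 10 passed the filter on low counts. RNA was sequenced from 2 libraries of cells with a negative control hairpin (shCON) and 2 of cells in which MAGED2, a gene of the melanoma antigen family, was knocked down with a short hairpin RNA (shMAGED2). The design text of the series calls the knockdown stable, whereas the labels' treatment text names ZDHHC15 as the hairpin target beside a scrambled control, with plasmids transfected transiently and cells taken after 36 h, and these accounts were not reconciled. The labels name 1 hairpin target per group and do not say how many hairpins or clones were used, and whether the replicates were separate cultures is not said, so that every p-value below reflects the spread between libraries that may differ only technically.

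ERK is the last kinase of a relay that runs from growth factor receptors through RAS, RAF and MEK. Active ERK switches on genes whose products then dampen the same relay. Sprouty and Spred proteins act near the membrane, where they hold back the activation of RAS and RAF, and DUSP proteins of the MAP kinase phosphatase class remove the activating phosphates from ERK or from the related stress kinases JNK and p38. Because many of these transcripts depend on ERK activity, their levels are often read as a sign of pathway output in glioma and other tumours. Transcript levels are not phosphorylation, and ERK activity itself was not measured in these data.

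Total counts per library were 28673774 to 36234336. MAGED2 fell from 175 and 178 CPM (counts scaled to library size) in the shCON libraries to 17.9 and 21.7 in the shMAGED2 libraries, and ZDHHC15 was at 0 counts throughout, for which the upper limit is 0.0828 to 0.105 CPM (3 counts, counting error only). The summed level of 6 mesenchymal markers of such lines (VIM, CD44, FN1, CAV1, ANXA1 and SPARC) was 5065 to 5254 FPKM (fragments scaled by gene length and depth) in shCON and 5259 to 5541 in shMAGED2. VIM made up most of it, with means of 4004 in shCON and 3998 in shMAGED2, and the others went both ways. ANXA1 (592 to 809) and CAV1 (78.4 to 110) rose past the threshold used below. CD44 (231 to 293) was higher, and FN1 (175 to 128) and SPARC (78.3 to 61.6) were lower, without passing. The 5 glial markers summed to 3.05 to 3.19 FPKM in shCON and 0.812 to 1.06 in shMAGED2, with AQP4 and SOX10 at 0 in every library. OLIG2 made up most of this sum, with means of 2.05 in shCON and 0.695 in shMAGED2. It fell past the threshold (log2 change −1.45; edgeR, adjusted p = 0.0158), whereas GFAP (0.838 to 0.214) was lower without passing. Few glial transcripts were thus found in cells labelled as glioblastoma, and the part of the glial difference in the results below was not tested. Leukocyte, endothelial and epithelial markers each summed to less than 1 FPKM in every library. The library of shMAGED2 replicate 1 stood apart in its mitochondrially encoded transcripts, which took 10.1% of its counts against 3.90% to 4.87% in the others.

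In the comparison of shMAGED2 with shCON, which asks how the transcriptome differs after MAGED2 knockdown, SPRY1 and SPRY2 rose, DUSP4 fell by a small margin and the other 7 genes did not pass the threshold. SPRY2 rose 1.72-fold and SPRY1, a minor transcript here, 3.59-fold, while DUSP4 was left at 75.4% of its control level in CPM. In the deposited FPKM, SPRY2 was at 165% of control, SPRY1 at 273% and DUSP4 at 72.5%. SPRY4 and SPRED2 also had higher values in both knockdown libraries, without passing. Fewer cells of a kind and less RNA per cell cannot be told apart in such bulk libraries. DUSP6, a widely used readout of ERK output, was at 102.7% of control. The test was edgeR's quasi-likelihood test with Benjamini-Hochberg adjustment over 15293 genes, with calls made at an adjusted p under 0.05. Of the 10 genes 3 passed, or 30.0%, where 23.9% of all genes tested passed, so that the share is close to the background. The 2 that rose compare with 12.3% of all genes rising and the 1 that fell with 11.6% falling. The groups did not overlap for 7 of the 10, against 66% of all genes tested. The median log2 change over the 10 was 0.17, against 0.0028 over all genes tested, and ran from 0.0888 with the filter of 5 CPM to 0.303 without shMAGED2 replicate 2.

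**Figure D1:**
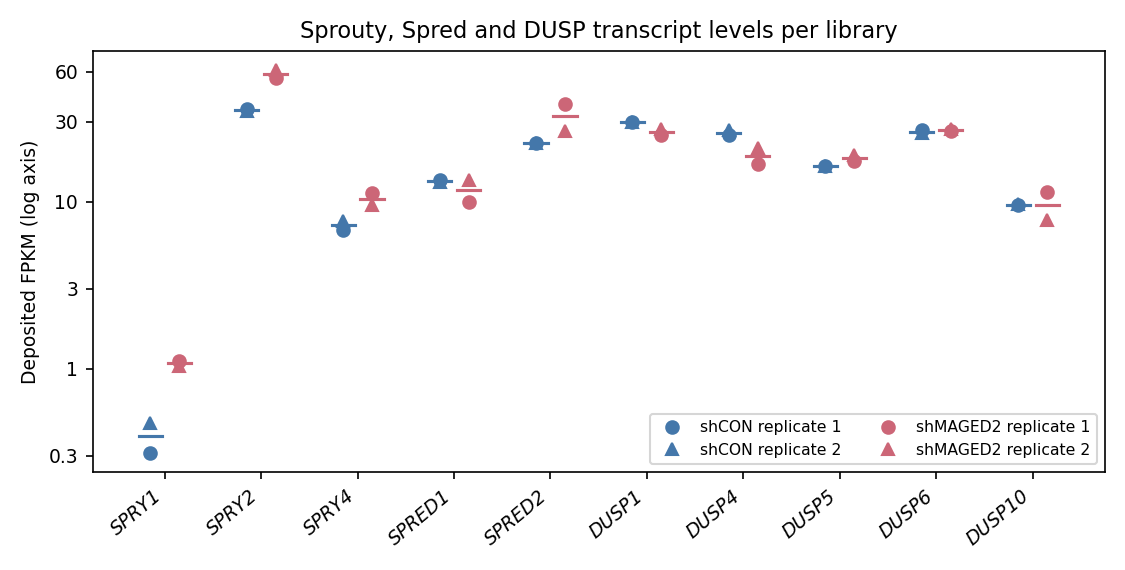
Deposited FPKM of the 10 genes in each library on a log axis, with circles for replicate 1, triangles for replicate 2 and bars for the group means of shCON (blue) and shMAGED2 (red). SPRY2 lies highest in both groups, at 58.3 FPKM in shMAGED2, SPRY1 lies lowest, and the 2 shMAGED2 points of SPRED2, SPRED1 and DUSP10 lie far apart.

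Compared per length, the control cells held a broad set of these transcripts. SPRY2 was the most abundant with 35.3 ± 0.88 FPKM (SD, n = 2), followed by DUSP1 with 30.0 ± 0.15. DUSP6 (26.2 ± 0.81) and DUSP4 (25.9 ± 1.33) came next, and their control libraries overlapped, so that these neighbours could not be ordered. SPRED2 (22.3 ± 0.02), DUSP5 (16.3 ± 0.04), SPRED1 (13.2 ± 0.25), DUSP10 (9.57 ± 0.10) and SPRY4 (7.22 ± 0.69) followed, each apart from its neighbours in both libraries. SPRY1 closed the order with 0.393 ± 0.11 FPKM. In shMAGED2 the order below SPRY2 was another one: SPRED2 (32.4 ± 8.25) held the second place, but its libraries overlapped those of DUSP6 (26.7 ± 0.44), and those of DUSP6 overlapped those of DUSP1 (26.2 ± 1.58). DUSP4 (18.8 ± 2.90) lay at the level of DUSP5 (18.3 ± 1.04), with overlapping libraries, whereas in control cells the ratio of DUSP4 to DUSP5 was 1.53 and 1.65. Within a library SPRY2 ranked above 91.5% to 91.7% of all table entries in shCON and above 95.3% to 95.5% in shMAGED2. SPRY1 ranked above 37.9% to 41.1% in shCON and above 48.2% to 49.1% in shMAGED2.

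Sprouty proteins are feedback inhibitors first known from fly airway branching, and they share a cysteine-rich part that anchors them at membranes. SPRY2 lies on the minus strand of chromosome 13 (80335976 to 80340951, hg38 with GENCODE 29; ENSG00000136158). It had 78.6 and 76.5 CPM in the shCON libraries and 130.4 and 135.7 in the shMAGED2 libraries. Both knockdown libraries were high, replicates of a group lay close together and the groups did not overlap. The rise was 0.78 on the log2 scale (SE 0.092, 95% interval 0.55 to 1.01; edgeR, adjusted p = 0.00387), and in the deposited FPKM it went from 35.3 ± 0.88 to 58.3 ± 4.57 (SD, n = 2). Of all genes tested, 22.2% had a larger absolute change. The change was 0.80 without shCON replicate 1 and 0.76 without shCON replicate 2, where edgeR's adjusted p was 0.054 and 0.0523, and 0.81 and 0.75 without shMAGED2 replicate 1 or 2.

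SPRY1, which restrains receptor signalling in kidney development among other settings, lies on the plus strand of chromosome 4 (123396795 to 123403760; ENSG00000164056). It had 24 and 23 counts in the shCON libraries and 84 and 90 in the shMAGED2 libraries. After scaling this was 0.688 and 0.784 CPM against 2.85 and 2.45 CPM, so that both knockdown libraries were high, though few reads stand behind each value. The log2 change was 1.84 (SE 0.37, 95% interval 0.93 to 2.76; edgeR, adjusted p = 0.0197), and 4.65% of the genes tested changed by more. The deposited levels were 0.314 and 0.473 FPKM in shCON and 1.11 and 1.04 in shMAGED2, so that SPRY1 was still the least abundant of the 10. Without shCON replicate 1 or 2, edgeR's adjusted p rose to 0.115 and 0.0779, with changes of 1.75 and 1.94. The knockdown mean was 273% of control in FPKM against 360% in CPM, a gap present before any constant is added. On the log2(FPKM + 0.1) scale limma gave 1.27 with an adjusted p of 0.0541, and on log2(FPKM + 1) it gave 0.58. Added constants further understate changes of low genes.

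The windows before the annotated start sites of both Sprouty genes that rose, and of DUSP1 for comparison, are shown because SPRY1 and SPRY2 rose together. Each runs 5′ to 3′ on the gene's strand over the 250 bases before a RefSeq start site (GRCh38.p14), and lies outside every GENCODE 29 exon of its gene. Capitals mark matches, on either strand, to 7 motifs: AP-1 (TGANTCA), the cAMP response element (TGACGTCA), an ETS site (CCGGAAGT), the E-box (CACGTG), the serum response element known as the CArG box, the GC box (GGGCGG) and the TATA box (TATAAA). The SPRY1 window is chr4:123396545-123396794, plus strand; the SPRY2 window is chr13:80341127-80341376, minus strand; the DUSP1 window is chr5:172771196-172771445, minus strand.
SPRY1: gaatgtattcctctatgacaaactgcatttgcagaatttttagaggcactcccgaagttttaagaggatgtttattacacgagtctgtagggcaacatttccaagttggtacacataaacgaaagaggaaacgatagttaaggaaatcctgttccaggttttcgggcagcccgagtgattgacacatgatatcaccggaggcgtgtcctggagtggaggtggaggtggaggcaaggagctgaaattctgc
SPRY2: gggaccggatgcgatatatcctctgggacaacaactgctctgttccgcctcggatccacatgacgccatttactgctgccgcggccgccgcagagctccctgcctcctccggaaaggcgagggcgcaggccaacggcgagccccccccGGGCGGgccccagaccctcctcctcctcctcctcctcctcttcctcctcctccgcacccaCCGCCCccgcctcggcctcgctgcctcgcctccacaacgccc
DUSP1: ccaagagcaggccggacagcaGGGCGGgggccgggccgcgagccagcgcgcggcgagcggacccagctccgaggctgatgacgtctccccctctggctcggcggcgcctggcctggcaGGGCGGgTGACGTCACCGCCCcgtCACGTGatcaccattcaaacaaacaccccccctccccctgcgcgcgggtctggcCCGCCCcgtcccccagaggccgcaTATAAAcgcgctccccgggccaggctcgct
The SPRY1 window holds none of the 7 motifs and has 45.6% G and C, whereas the SPRY2 window has 70.4% and 2 GC boxes, a motif found in 42.6% of 35116 such windows over all genes. The DUSP1 window holds a cAMP response element (1.65% of windows), an E-box (6.34%), a TATA box (10.7%) and 4 GC boxes, one of which directly follows the cAMP response element, so that their capitals run together. AP-1 (6.57%), ETS (3.42%) and CArG (1.16%) motifs were in none of the 13 windows of the 8 genes with an entry. A match is a description of the letters and not a bound site, and which start site the cells used was not measured. SPRY1 and SPRY2 each have further annotated starts: the second SPRY1 window has 68.0% G and C and 2 GC boxes, and the 2 further SPRY2 windows have 62.4% and 41.2% and none of the motifs, so that the contrast between both genes depends on the start shown. DUSP4 and DUSP5 had no window that was used.

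SPRY4, a Sprouty with broad expression, lies on the minus strand of chromosome 5 (142310427 to 142326455; ENSG00000187678). Its levels were 31.1 and 34.6 CPM in shCON and 53.1 and 40.8 CPM in shMAGED2. Both knockdown libraries were above both controls, but they differed from each other by a ratio of 1.30 (95% counting interval 1.21 to 1.40). The log2 difference was 0.51 (SE 0.16, 95% interval 0.12 to 0.91) and missed the threshold (edgeR, adjusted p = 0.0676). Leaving out shMAGED2 replicate 1 gave 0.31 and leaving out replicate 2 gave 0.69. SPRY4 passed with 0.51 in DESeq2 (adjusted p = 0.0367) and in edgeR without the low-count filter (adjusted p = 0.0351). SPRY4 overlaps the antisense gene SPRY4-AS1, and whether reads were counted by strand is unknown here, so the reads of this pair cannot be told apart.

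Summed over SPRY1, SPRY2 and SPRY4, the Sprouty level was 43.0 and 42.9 FPKM in shCON and 67.4 and 72.0 FPKM in shMAGED2. The sum was thus 1.62 times the control level, with no overlap. SPRY2 supplied most of it in every library, 80.9% to 83.6% in shCON and 81.6% to 85.4% in shMAGED2. The share overlapped between the groups, as did the ratio of SPRY2 to SPRY4 (5.34 and 4.51 in shCON, 4.88 and 6.46 in shMAGED2). These sums and ratios are given as a description, with no test.

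Spred proteins carry a Sprouty-like end and bring neurofibromin, which switches RAS off, to the membrane. The 2 Spred genes differed in sign, and neither passed. SPRED2 (ENSG00000198369; chromosome 2, minus strand, 65310851 to 65432637) had 86.3 and 87.2 CPM in shCON and 161.9 and 106.8 CPM in shMAGED2. Both knockdown libraries were above the controls, with replicate 1 far above replicate 2 (ratio 1.52, 95% counting interval 1.45 to 1.58). The log2 difference of 0.63 (SE 0.20, 95% interval 0.15 to 1.11) missed the threshold in edgeR's test (adjusted p = 0.065). It was 0.30 without shMAGED2 replicate 1 (adjusted p = 0.000486) and 0.90 without replicate 2 (adjusted p = 1.83e-11). The fit with the replicate number as a block gave edgeR's adjusted p = 0.0386 and DESeq2 gave an adjusted p of 0.00635, each with a similar difference (0.60 and 0.63).

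SPRED1, the Spred gene that is mutated in Legius syndrome, a condition related to neurofibromatosis, lies on the plus strand of chromosome 15 (38252326 to 38357249; ENSG00000166068). Its levels were 106.3 and 103.4 CPM in shCON and 84.5 and 107.5 CPM in shMAGED2, so that replicate 1 of the knockdown was low, replicate 2 was high and the groups overlapped. The log2 difference was −0.13 (95% interval −0.46 to 0.20; edgeR, adjusted p = 0.537). It was −0.31 without shMAGED2 replicate 2, where SPRED1 passed (edgeR, adjusted p = 0.000485), and 0.04 without shMAGED2 replicate 1. The FPKM ratio of SPRED2 to SPRED1 was 1.66 and 1.71 in shCON, and 3.86 and 1.97 in shMAGED2. Summed, the 2 Spred genes had 35.7 and 35.4 FPKM in shCON and 48.1 and 40.04 FPKM in shMAGED2.

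**Figure D2:**
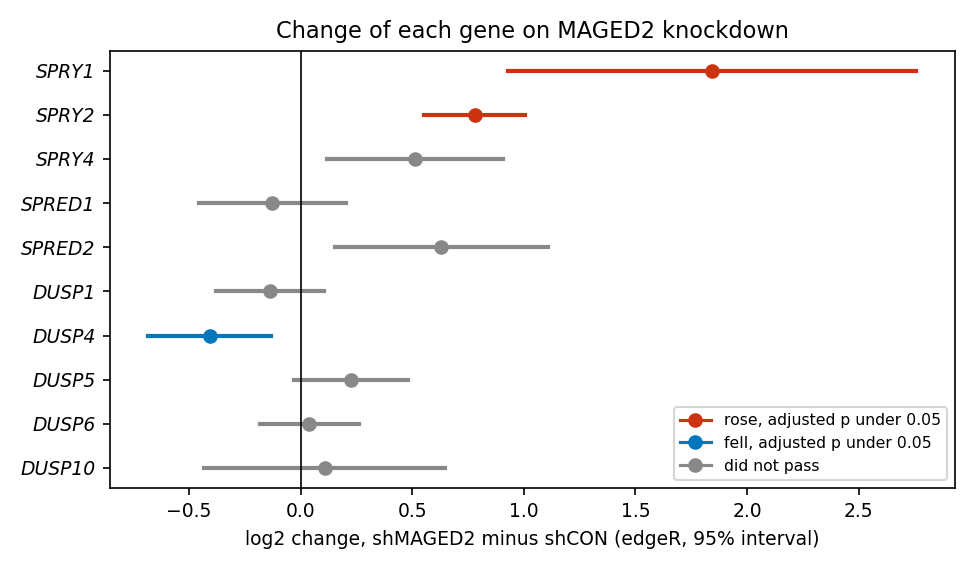
Log2 change of each gene, shMAGED2 minus shCON, from edgeR's quasi-likelihood fit to the 4 libraries, with points for the estimates and lines for 95% intervals. SPRY1 (1.84) and SPRY2 (0.78) rose, DUSP4 (−0.41) fell, and the grey genes did not pass.

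Among the phosphatases, DUSP1, DUSP4 and DUSP5 act in the nucleus. DUSP4, which acts on ERK and also on JNK and p38, was the only one of the 5 DUSP genes in the set that passed. It lies on the minus strand of chromosome 8 (29333064 to 29350668; ENSG00000120875). It had 139.3 and 150.8 CPM in shCON and 101.3 and 117.5 CPM in shMAGED2. Both knockdown libraries were low, and the groups did not overlap. DUSP4 fell by 0.41 on the log2 scale (SE 0.11, 95% interval −0.68 to −0.13; edgeR, adjusted p = 0.0481), close to the threshold. Its adjusted p was 0.229 and 0.381 without shCON replicate 1 or 2, 0.0542 without robust estimation, 0.0562 with library size alone as the scale, 0.0719 and 0.0746 in limma on FPKM and 0.0504 with the mitochondrially encoded genes removed, with changes of −0.35 to −0.47. Without shMAGED2 replicate 1 or 2 the change was −0.30 and −0.52 and passed.

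DUSP1, an immediate early gene whose product prefers p38 and JNK, lies on the minus strand of chromosome 5 (172768090 to 172771195; ENSG00000120129). Its levels were 62.0 and 61.5 CPM in shCON and 55.6 and 56.6 CPM in shMAGED2. Both knockdown libraries were slightly low, but the log2 difference of −0.14 (95% interval −0.38 to 0.10) did not pass (edgeR, adjusted p = 0.354). DUSP5, a phosphatase specific for ERK that also holds it in the nucleus, lies on the plus strand of chromosome 10 (110497838 to 110511544; ENSG00000138166). It had 42.5 and 42.4 CPM in shCON and 49.3 and 49.9 CPM in shMAGED2, with tight replicates and no overlap. The log2 difference of 0.22 (95% interval −0.03 to 0.48) did not pass (edgeR, adjusted p = 0.175). DUSP1 overlaps an antisense gene, AC022217.3, and DUSP6 another, AC024909.2, with the same limit as for SPRY4.

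DUSP6, the cytoplasmic phosphatase specific for ERK, lies on the minus strand of chromosome 12 (89347232 to 89353271; ENSG00000139318). It was at 114.6 and 111.3 CPM in shCON and at 118.2 and 113.8 CPM in shMAGED2, and the groups overlapped. Its log2 difference was 0.04 with a 95% interval of −0.18 to 0.26 (edgeR, adjusted p = 0.794), and 94.1% of the genes tested had a larger absolute change. The interval does not reach the size of the rise of SPRY2 (0.78). DUSP10, which acts on JNK and p38 rather than on ERK, lies on the minus strand of chromosome 1 (221701424 to 221742176; ENSG00000143507). It had 24.1 and 25.3 CPM in shCON but 32.4 and 20.9 CPM in shMAGED2, so that the knockdown libraries lay on either side of the controls. The log2 difference was 0.11 (95% interval −0.43 to 0.65; edgeR, adjusted p = 0.759), and it was −0.24 without shMAGED2 replicate 1 and 0.39 without replicate 2, where DUSP10 passed (edgeR, adjusted p = 0.0128).

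The 5 DUSP genes together had 107.6 and 108.3 FPKM in shCON and 97.2 and 102.0 FPKM in shMAGED2, or 0.923 times the control level. DUSP4 made up 23.2% and 24.8% of this sum in shCON and 17.2% and 20.4% in shMAGED2. The FPKM ratio of DUSP4 to DUSP6 was 0.932 and 1.05 in shCON and 0.632 and 0.769 in shMAGED2. The ratio of SPRY2 to DUSP6 was 1.34 and 1.35 in shCON and 2.08 and 2.27 in shMAGED2. Neither of these ratios overlapped between the groups, which is given as a description with no test.

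The 2 knockdown libraries differed from each other in these genes more than the 2 controls did. The ratio of replicate 1 to replicate 2 had a 95% counting interval that excluded 1 for 5 of the 10 genes in shMAGED2 (SPRY4, SPRED1, SPRED2, DUSP4 and DUSP10) and for 2 in shCON (SPRY4 and DUSP4). The same held for 61.4% of all genes tested in shMAGED2 and 36.7% in shCON, so that the 10 genes did not stand out. The largest such ratios were those of DUSP10, at 1.55 (interval 1.41 to 1.71), and SPRED2, at 1.52. The high share of mitochondrially encoded transcripts was in shMAGED2 replicate 1, the library in which SPRED2, DUSP10 and SPRY4 were high and SPRED1 and DUSP4 low. With the mitochondrially encoded genes removed, the log2 change of no member shifted by more than 0.0057. Whether the high share has any other part in these values was not tested.

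**Figure D3:**
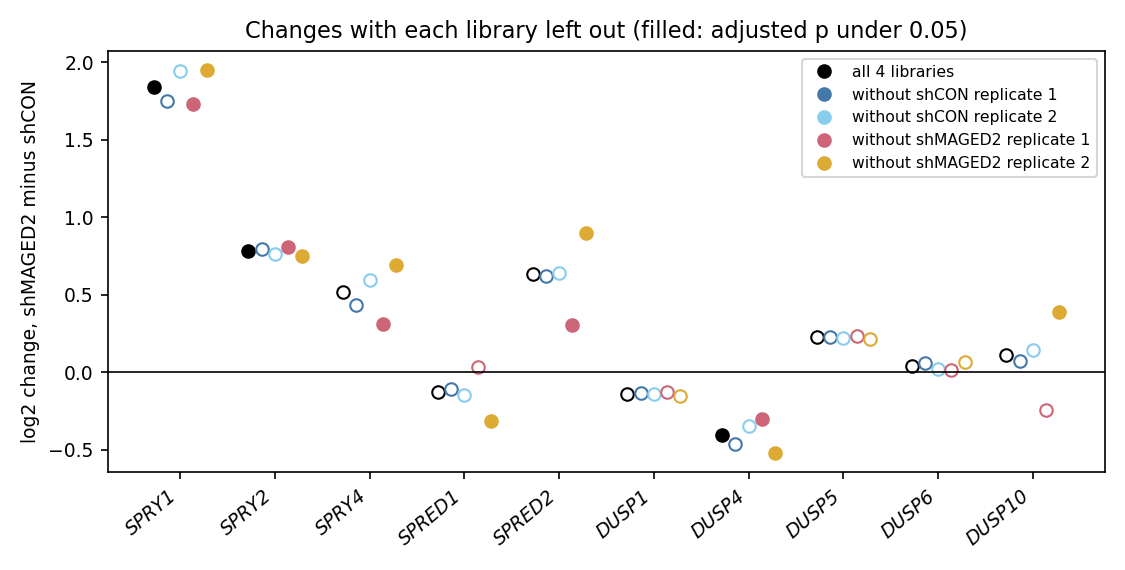
Log2 change of each gene with all 4 libraries (black) and with each library left out in turn, filled where edgeR's adjusted p was under 0.05. SPRY2 keeps 0.75 to 0.81 throughout, whereas SPRED2, DUSP10 and SPRED1 move with the shMAGED2 library that is left out, and no gene passes when a shCON library is left out.

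Leaving out a control library leaves the spread to be judged from the shMAGED2 pair. Then 0 of the 10 genes passed without shCON replicate 1 and 0 without shCON replicate 2, where 6.96% and 7.97% of all genes tested passed. Without shMAGED2 replicate 1, 4 of the 10 rose and 1 fell, and without replicate 2, 5 rose and 2 fell, where 41.1% and 47.0% of all genes passed. Each of these 4 fits takes the spread of the pair that remains as that of the single library too.

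The rest of the family showed 0 calls in edgeR's test. SPRY3, a Sprouty gene in the pseudoautosomal region shared by the X and Y chromosomes, had 4.13 and 4.57 CPM in shCON and 6.01 and 5.17 CPM in shMAGED2 (log2 difference 0.36; adjusted p = 0.307 in edgeR). SPRED3 had 25.6 and 24.5 CPM in shCON and 37.4 and 25.03 CPM in shMAGED2 (0.32; adjusted p = 0.315 in edgeR), again with replicate 1 high. Of the MAP kinase phosphatases outside the set, DUSP7, a relative of DUSP6, had a log2 difference of 0.51, DUSP16, which acts on JNK and p38, had 0.21, and DUSP8 had −0.89 (edgeR, adjusted p = 0.182, 0.285 and 0.177). Each of these 3 had groups that did not overlap, which held for 66% of all genes tested. For DUSP7 the gap was small, with 29.2 CPM in shMAGED2 replicate 2 against 28.7 CPM in shCON replicate 2, and its difference was 0.11 without shMAGED2 replicate 1 and 0.828 without replicate 2. DUSP9 had 0 counts in every library, with the same upper limit as ZDHHC15, and DUSP2 had 4 counts in shCON replicate 1 and 0 in the others. The 5 DUSP genes of the set carried 87.7% to 88.01% of the summed FPKM of the 10 MAP kinase phosphatases in shCON and 82.5% to 86.7% in shMAGED2. Among 13 atypical DUSP genes, small phosphatases without a kinase-binding domain, 9 were tested and 0 passed, where 23.9% of all genes tested passed. The median log2 change of the 9 was 0.04. DUSP28, DUSP14, DUSP23 and DUSP19 had the smallest p among them, at log2 differences of −0.69, 0.26, 0.21 and 0.17. Of the 14 relatives tested, DUSP28 had an unadjusted p under 0.05 (edgeR), and 0 were called by DESeq2. With 1 library left out, the differences ran from −0.873 to −0.477 for DUSP28 and −1.35 to −0.53 for DUSP8. They ran from 0.129 to 0.278 for DUSP16 and −0.00135 to 0.576 for SPRED3. Which relatives passed depended on the library left out.

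The relay on which these brakes act was followed through 19 genes for adaptors, RAS, RAF, MEK and ERK. Of these 0 rose and 2 fell in edgeR's test, where 12.3% of all genes tested rose and 11.6% fell, with a median log2 change of 0.06. BRAF, a RAF kinase, fell from 67.1 and 71.7 CPM to 52.2 and 49.8 (log2 change −0.45, SE 0.10), and SOS2, an exchange factor that loads RAS with GTP, fell from 33.4 and 40.3 CPM to 25.9 and 23.7 (−0.57, SE 0.15). SOS2 missed the threshold in limma on log2(FPKM + 1) and log2(FPKM + 0.1) (adjusted p = 0.0647 and 0.0644). KSR1, a scaffold of the relay, had 1.23 and 0.955 CPM in shCON and 2.28 and 3.40 CPM in shMAGED2, just short of the threshold (1.37; edgeR, adjusted p = 0.0504). It passed without the low-count filter (edgeR, adjusted p = 0.0365) and with the mitochondrially encoded genes removed (edgeR, adjusted p = 0.0495), so that 1 of the 19 rose in each of these fits. ARAF, another RAF kinase, had a log2 difference of 0.25. Without shCON replicate 1 or 2, 0 of the 19 passed, and without shMAGED2 replicate 1 or 2, 10 passed in each case, where 41.1% and 47.0% of all genes passed.

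Other brakes on RAS and ERK went both ways. Of 16 such genes 15 were tested, of which 2 rose and 3 fell (median 0.05). That is 33.3% called, where 23.9% of all genes tested passed. ERRFI1, an inhibitor of the EGF receptor, rose from 102.4 and 98.9 CPM to 168.4 and 161.4 (0.71, SE 0.091), a rise of about the size of that of SPRY2. RASAL2, an activator of RAS GTP hydrolysis, rose from 80.6 and 89.4 CPM to 191.2 and 155.5 (1.03, SE 0.13), and missed the threshold in limma on log2(FPKM + 1) and log2(FPKM + 0.1) (adjusted p = 0.0775 and 0.0804). LRIG1, a membrane protein that promotes the loss of growth factor receptors, fell from 47.7 and 48.6 CPM to 28.9 and 25.9 (−0.81, SE 0.12), and CBLB, a ubiquitin ligase, fell from 72.5 and 65.7 CPM to 39.3 and 31.6 (−0.96, SE 0.14). LZTR1, an adaptor for the degradation of RAS proteins, also fell (−0.46, SE 0.11). It was named after its value was seen, and ERRFI1, RASAL2, LRIG1 and CBLB were named for the smallest p of the list. With 1 library left out, the changes ran from 0.682 to 0.741 for ERRFI1 and 0.873 to 1.17 for RASAL2. They ran from −0.892 to −0.739 for LRIG1, −1.13 to −0.818 for CBLB and −0.539 to −0.394 for LZTR1. Which genes of the list passed depended on the library left out.

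Of 23 further transcripts known to be induced by ERK, 22 were tested, of which 4 rose and 3 fell, with a median log2 change of −0.04. The share called was 31.8%, against 23.9% of all genes tested. EPHA2, an ephrin receptor, rose from 2.46 and 1.60 CPM to 21.4 and 24.9 (3.50, SE 0.26), VGF, a secreted neuropeptide precursor, from 68.2 and 70.0 to 128.2 and 124.6, and the transcription factor MYC from 55.1 and 56.1 to 162.6 and 109.7. LIF, a cytokine, fell from 164.2 and 156.3 CPM to 79.4 and 86.6. FOSL1 rose (1.19, SE 0.26), and FOS (−1.50, SE 0.26) and EGR3 (−2.24, SE 0.56) fell, all of them transcription factors of the immediate early or AP-1 class named after their values were seen. The change of FOSL1 was 0.705 without shMAGED2 replicate 1 and 1.55 without replicate 2, and it missed the threshold without the low-count filter (edgeR, adjusted p = 0.105). The ETS factors ETV4 and ETV5 and the pleckstrin-like protein PHLDA1 had log2 differences of 0.12, −0.14 and 0.04. They did not pass with all 4 libraries, and they too were named after their values were seen. With 1 library left out, their differences ran from −0.00354 to 0.228, −0.259 to −0.0378 and −0.0493 to 0.125. Other transcripts read as ERK output went both ways. SPRY2 (0.78) and EPHA2 (3.50) rose and DUSP4 (−0.41) fell, while SPRY4 (0.51) and DUSP6 (0.04) did not pass. In the same fits the changes ran from 3.23 to 3.85 for EPHA2, 0.85 to 0.89 for VGF and 0.98 to 1.55 for MYC. They ran from −1.01 to −0.888 for LIF, −1.7 to −1.28 for FOS and −2.74 to −1.86 for EGR3. Which genes of the list passed depended on the library left out.

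**Figure D4:**
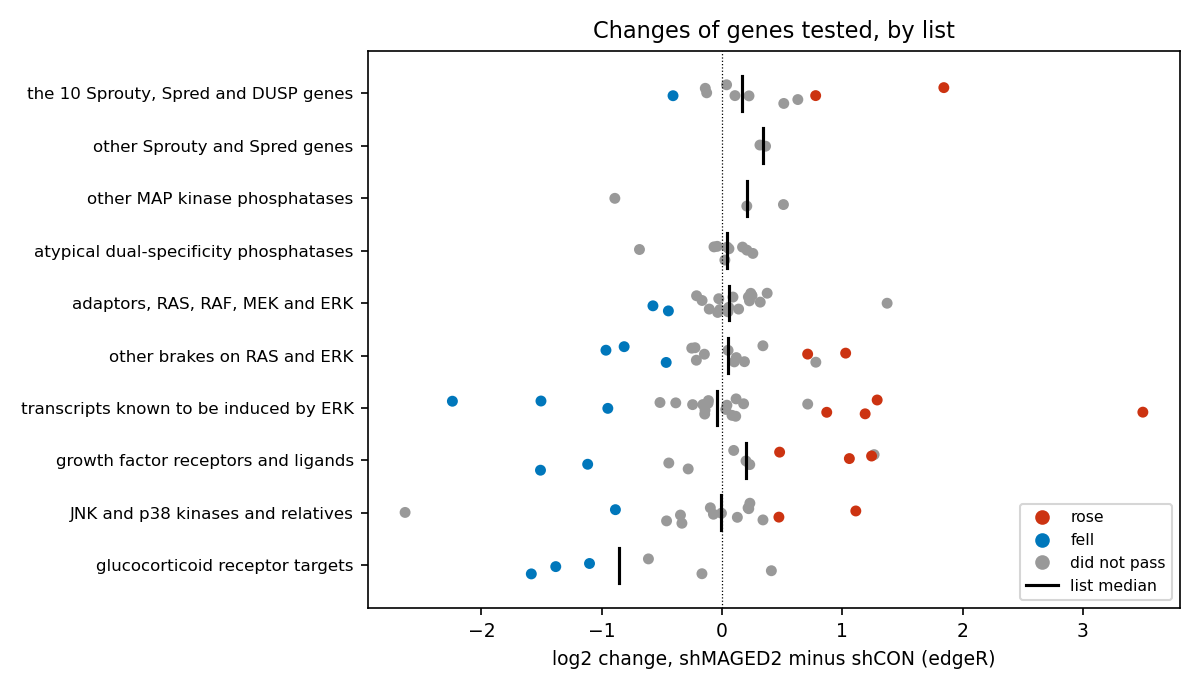
Log2 changes of all tested genes of each list, with 1 point per gene, coloured where edgeR's adjusted p was under 0.05, and a bar at the list median. The 10 Sprouty, Spred and DUSP genes spread from −0.41 to 1.84, and the glucocorticoid receptor targets have the lowest median (−0.86).

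At the receiving end, 11 of 15 listed growth factor receptors and ligands were tested, of which 3 rose and 2 fell (median 0.20). Those called made up 45.5% of the 11, against 23.9% of all genes tested. FGF2, a ligand that induces Sprouty genes through ERK, fell from 317.6 and 338.0 CPM to 114.3 and 116.1 (−1.51, SE 0.091), and the receptor PDGFRB fell from 39.8 and 41.6 to 18.8 and 18.7 (−1.12, SE 0.12). The receptor kinase AXL rose from 167.4 and 164.4 CPM to 364.3 and 327.1 (1.06, SE 0.097), FGF5 from 6.33 and 8.63 to 19.1 and 16.3 (1.24, SE 0.21), and MET, named after its value was seen, by 0.48 (SE 0.097). FGF5 and MET did not pass in every fit with 1 library left out. In those fits the changes ran from −1.56 to −1.46 for FGF2 and from −1.15 to −1.08 for PDGFRB. They ran from 0.98 to 1.13 for AXL, 1.03 to 1.48 for FGF5 and 0.393 to 0.559 for MET.

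DUSP1, DUSP4 and DUSP10 also act on JNK and p38. Of 15 genes of these stress kinase relays 2 rose and 1 fell (median −0.0045), or 20.0% called against 23.9% of all genes tested. MAP2K3, which activates p38, rose from 39.0 and 44.0 CPM to 87.2 and 92.3 (1.11, SE 0.11), and JUN, the main target of JNK, from 217.3 and 215.7 to 298.5 and 302.6 (0.47, SE 0.085). JUN missed the threshold in limma on log2(FPKM + 0.1) (adjusted p = 0.0506). MAP3K5, a stress kinase further upstream, fell from 10.5 and 11.0 CPM to 5.81 and 5.86 (−0.89, SE 0.18). MAPK9, which encodes a JNK, had a log2 difference of 0.34 and did not pass (edgeR, adjusted p = 0.0624). With 1 library left out, the changes ran from 1.03 to 1.2 for MAP2K3 and 0.461 to 0.484 for JUN. They ran from −0.92 to −0.854 for MAP3K5 and 0.273 to 0.405 for MAPK9. Which genes of the list passed depended on the library left out.

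DUSP1 is also a target of the glucocorticoid receptor. Of 7 other targets 6 were tested, and 3 fell and 0 rose (median −0.86): TSC22D3, also known as GILZ, from 30.3 and 31.3 CPM to 8.66 and 11.8, KLF9 from 57.6 and 61.2 to 27.3 and 28.0, and CEBPD from 29.3 and 36.3 to 13.8 and 11.4. Over all genes tested 11.6% fell. FKBP5, a co-chaperone of the receptor, had 19.4 and 19.7 CPM in shCON and 29.5 and 22.5 CPM in shMAGED2, a log2 difference of 0.41 that did not pass with all 4 libraries (edgeR, adjusted p = 0.134) but passed upward without shMAGED2 replicate 2 (0.59; edgeR, adjusted p = 0.000838). SGK1, a kinase, had a log2 difference of −0.17 and did not pass. FKBP5 and SGK1 were named after their values were seen. PER1, a clock gene, had a log2 difference of −0.61 that did not pass (edgeR, adjusted p = 0.0829). With 1 library left out, the change of TSC22D3 ran from −1.83 to −1.38 and that of KLF9 from −1.15 to −1.06. That of CEBPD ran from −1.53 to −1.22. DUSP1 itself did not pass in any of the alternative fits run. Whether the difference in response between DUSP1 and these genes exceeds the spread was not tested.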

How the data were processed

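The members and the gene lists were chosen with earlier results of these data known, so that no list is independent support. All 4 columns of each deposited table were mapped to a sample by its description. Counts were deposited as whole numbers for each gene, and the FPKM values were computed by the authors; HISAT2, StringTie and SAMtools on hg38 are named in the submitters' processing notes, while no source used here gives the annotation, strand setting or gene lengths. Libraries held 28673774 to 36234336 counts.

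Counts were filtered with filterByExpr, scaled by TMM and tested in edgeR 4.0.16 (R 4.3.3) with a robust quasi-likelihood fit with group as its only term, two-sided, with Benjamini-Hochberg adjustment over 15293 genes and 2 residual degrees of freedom. Standard errors and 95% intervals come from the F statistic. Counting intervals are exact binomial and cover counting error only, as does the limit of 3 counts. Named were all members, MAGED2, all listed Sprouty, Spred and MAP kinase phosphatase relatives, and up to 4 genes per other list with the smallest p. The genes with the smallest p were thus chosen from their values, like those marked as named after their values were seen. Alternatives used limma 3.58.1 and DESeq2 1.42.0, other scalings and filters, a replicate block, and fits with 1 library omitted. Same-numbered libraries did not deviate together (correlation −0.0175 across genes). The test was also tried on simulated data, but the outcome is not given here and no result above rests on it. Coordinates are 1-based from GENCODE 29; windows are from RefSeq (GRCh38.p14).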

Additional observations from a re-analysis of the deposited data

How the results depend on the processing

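With all 4 libraries, 1874 genes rose and 1775 fell. Leaving out 1 library gave 567 to 3725 risen and 533 to 3722 fallen genes, the low counts without a shCON library and the high ones without a shMAGED2 library, and log2(FPKM + 0.1) gave 1244 risen genes. Of the 10 members, 2 rose and 1 fell. Leaving out 1 library gave 0 to 5 risen and 0 to 2 fallen members. DESeq2 gave 4 risen members, and the fit without the low-count filter gave 3, with SPRY4 added. The fit on log2(FPKM + 0.1) and that with the filter of 5 CPM, which SPRY1 does not pass, gave 1 each. With 0 fallen members, DUSP4 missed the threshold with library size alone, with limma on log2(FPKM + 1) and log2(FPKM + 0.1), without robust estimation and with mitochondrially encoded genes removed, the last chosen after seeing the data. Leaving out 1 library moved the differences of SPRED1 from −0.313 to 0.0355, DUSP10 from −0.241 to 0.391, SPRED3 from −0.00135 to 0.576, ETV4 from −0.00354 to 0.228 and PHLDA1 from −0.0493 to 0.125, each with the sign changed without shMAGED2 replicate 1. The sign also changed for DUSP6 (−0.0228) and PHLDA1 (−0.0222) with library size alone, and for DUSP10 (−0.0204 and −0.0245) and PHLDA1 (−0.0191 and −0.0193) with limma on log2(FPKM + 1) and log2(FPKM + 0.1). None of these genes passed the threshold with all 4 libraries or in the fits that changed the sign, and the cause was not tested. The replicate block gave 3336 changed genes, 3144 of them among the 3649 of the fit without it, and among the members it added SPRED2 (0.601) and ended no call. EGR3 missed (adjusted p = 0.0512, edgeR) and PER1 passed (adjusted p = 0.0492, edgeR) under the replicate block. SPRY1, with 23 to 90 counts, is the member that depth limits most.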
